A study of Gallus gallus with 21 samples.

Results

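The claudins and tight junction proteins described here are the products of 8 genes, CLDN1, CLDN3, CLDN5, CLDN10, CLDN11, CLDN12, OCLN and TJP1, which were looked for by symbol among the 19874 probe sets of a chicken array table. A probe set was found for 4 of the 8 genes, with 1 for CLDN1 and 2 each for CLDN5, CLDN11 and TJP1, or 7 probe sets in all. CLDN3, CLDN10, CLDN12 and OCLN were annotated to none of the 19874 probe sets and were not analysed here. The paper describes a filter of probe sets on expression level and present calls, and 3592 probe sets of the table carry no gene annotation. The 4 genes may therefore have failed the filter or lack a symbol, and their absence does not show that the array has no probes for them. RNA was measured in the left gonad, the brain and the heart of White Leghorn embryos after 18 days of incubation, and no treatment or genetic alteration is described for any of them. The 21 arrays fell into 6 groups, namely male gonad or testis (n = 4), female gonad or ovary (n = 3), male brain (n = 3), female brain (n = 4), male heart (n = 3) and female heart (n = 4). The arrays came from 4 embryos of each sex, and arrays with the same embryo number and sex were taken as tissues of the same embryo. The brain sample was the diencephalon with remains of other regions, and the heart sample was a piece of the apex, so neither stands for the whole organ.

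Tight junctions seal the space between neighbouring cells of epithelia and endothelia. Claudins are the membrane proteins that set which ions and solutes pass through the seal, occludin (OCLN) is another membrane protein of the strand, and TJP1 (ZO-1) is the scaffold that ties the strand to actin. In mammals, CLDN11 forms the junctions between Sertoli cells that close off the inner part of the seminiferous tubule, and it also forms the junctions between the wraps of central myelin. CLDN5 is the claudin of endothelial cells and of the blood-brain barrier in mouse, and CLDN1 is a claudin of many epithelia, among them the epidermis.

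For CLDN5, CLDN11 and TJP1, the probe set with the higher mean over its arrays stands for the gene in counts and is called the main probe set, and the other is called the second probe set. In the GRCg7b gene table CLDN1 and CLDN11 lie on chromosome 9, CLDN5 on chromosome 15 and TJP1 on chromosome 10, so none of the 4 is sex-linked. All values are log2 probe set intensities as deposited, in which 1 unit is a doubling. Values of CLDN11 in heart are blank in the table, so its heart level is not known here, and the other 5 probe sets have values in all tissues. The paper filtered probe sets in each tissue on expression level and present calls, so the blanks may mean that CLDN11 did not pass in heart.

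Differences are given as male minus female, gonad minus brain or heart, or brain minus heart, each with its standard error (SE) from limma. A difference was called where the fold-change passed 1.5 and the adjusted p was below 0.05, with the Benjamini-Hochberg adjustment taken over all probe sets that have values in the compared groups. Brain and heart carried their defining markers. The 4 neuron markers with values averaged 12.8 to 12.9 in male and female brains, and the 5 cardiac muscle markers averaged 13.0 to 13.2 in hearts. Aromatase (CYP19A1) was at 2.36 to 2.37 in testes and at 14.14 to 14.41 in ovaries. CYP19A1 and FOXL2 (2.58, against 6.98 in ovaries) averaged under 4.000 in testes, the lowest higher sex mean deposited. Both have gonad values only through the ovaries, so they could only be higher there. FST, another marker of ovarian somatic cells, averaged higher in testes without a call (5.14, against 4.66 in ovaries). The kit used to extract RNA from gonads was not the one used for brain and heart, so tissue and kit cannot be told apart in any comparison of gonads with the other tissues. Array medians over probe sets present in all tissues lay 0.21 higher in gonads than in brain, 0.14 higher in gonads than in heart and 0.07 lower in brain than in heart, and centring the arrays on these medians was among the alternatives.

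Of the 4 genes CLDN11 had the largest difference between the sexes, and it was in gonads. Its main probe set was at 12.20, 13.15, 12.42 and 12.66 in testes, against 7.73, 6.10 and 6.22 in ovaries. All 4 testes lay above all 3 ovaries by more than 4 log2 units, and among the ovaries embryo 2 was higher than the others. The difference was 5.93 (SE 0.36, adjusted p = 8.84e-08), which is a 60.8-fold higher level in testes. The second probe set was at 11.17, 11.96, 11.79 and 12.03 in testes and at 5.32, 4.64 and 5.13 in ovaries, a difference of 6.71 (SE 0.42, adjusted p = 1.21e-07). By this difference the second and the main probe set ranked 5 and 10 of 16499 from the most male-biased end. In whole-tissue RNA, fewer cells of a type and less RNA per cell cannot be told apart.

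**Figure D1:**
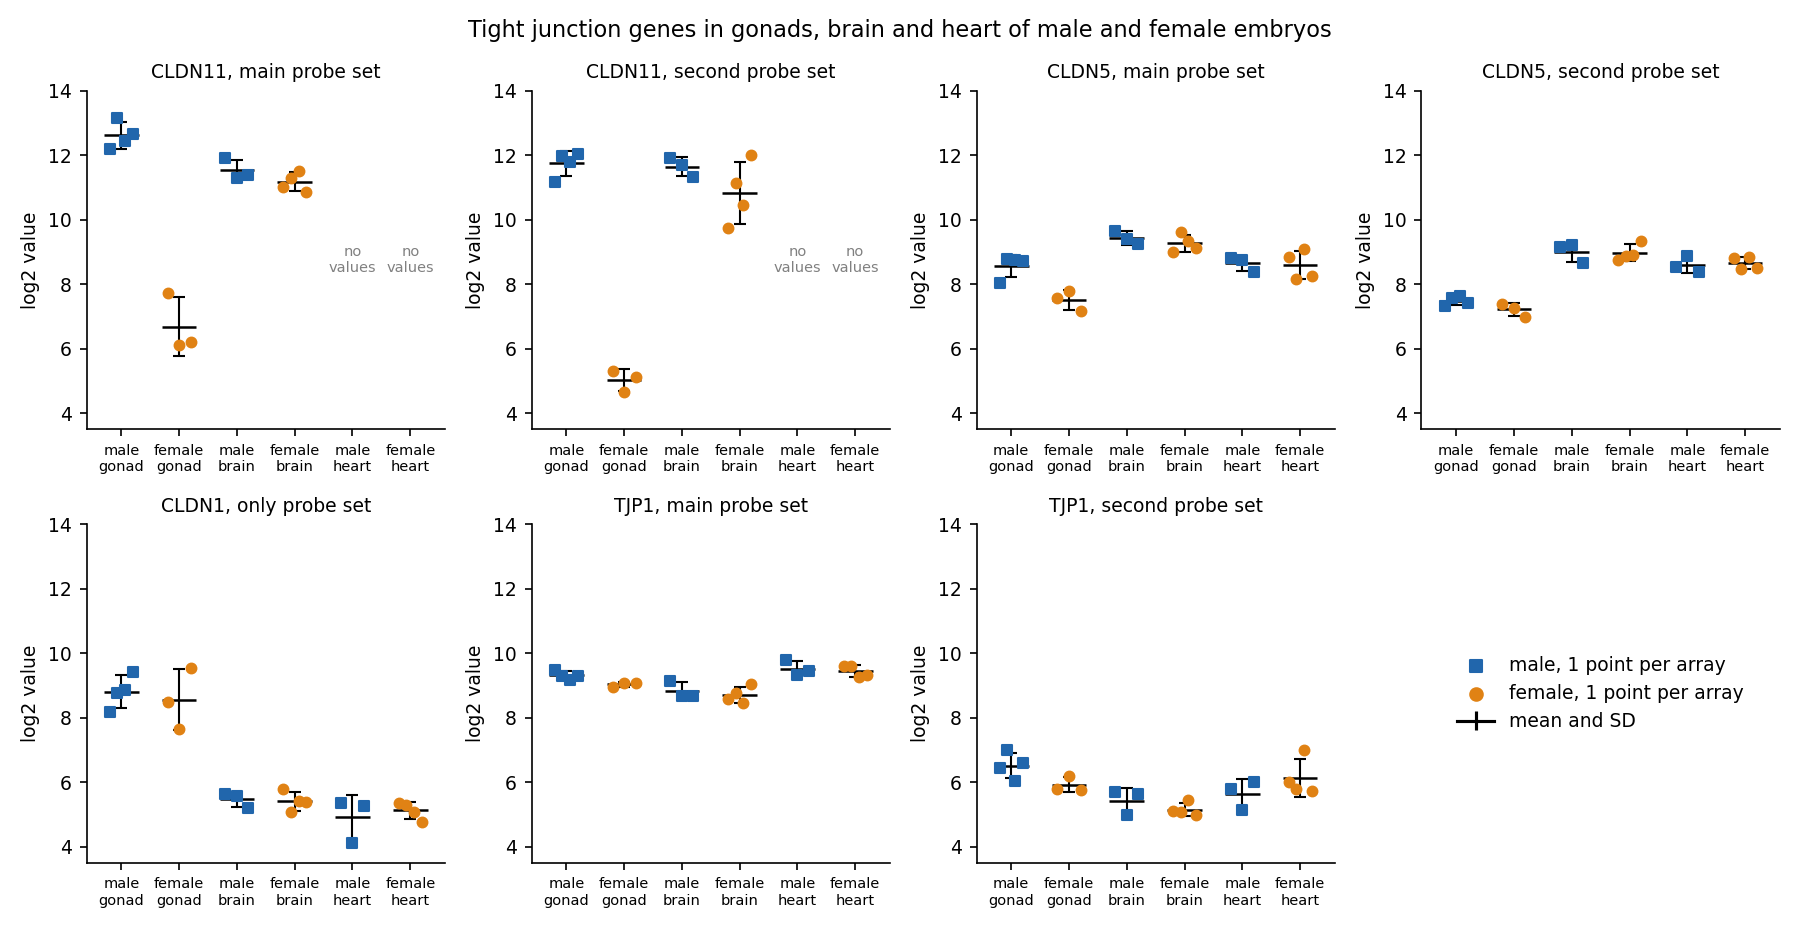
Log2 values of the 7 probe sets of CLDN11, CLDN5, CLDN1 and TJP1 in male and female gonad, brain and heart, with 1 point per array and a bar for the mean and SD. CLDN11 in female gonads (4.64 to 7.73) lies apart from its other groups, and CLDN1 is higher in gonads (7.65 to 9.53) than in brain and heart (4.10 to 5.79).

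Markers of Sertoli cells, the somatic cells that carry CLDN11 in the mammalian testis, were set beside it. Over 7 Sertoli cell markers with values in gonads, the mean level was 9.27 to 9.92 in testes, against 7.63 to 8.02 in ovaries. Of the 7, SOX9, INHA and AMH were called higher in testes and FSHR was called lower. PTGDS also averaged lower in testes (5.61, against 6.83 in ovaries), without a call and with overlapping arrays. Over all probe sets 12.8% were called higher and 13.8% lower in testes. SOX9 and INHA averaged 3.0 and 1.83 in ovaries, under 4.000, the lowest higher sex mean deposited. They have gonad values only through the testes, so they could only be higher in testes. Both enter the list means above, so the difference between those means is in part fixed as well. Of the other markers AMH (14.25, against 13.02 in ovaries), DMRT1 (13.83, against 13.45) and GATA4 (7.92, against 7.32) averaged higher in testes. FSHR (7.82, against 9.62) and PTGDS averaged lower. SOX9, the transcription factor of Sertoli cell fate, was at 7.90, 8.96, 8.35 and 8.38 in testes and at 3.04, 2.98 and 2.97 in ovaries. The testis of embryo 16 was highest and that of embryo 9 lowest in SOX9 as in the main CLDN11 probe set, while the second CLDN11 probe set had embryo 21 highest (12.03) and embryo 16 next (11.96), and all 3 ovaries were near 3 in SOX9, including that of embryo 2 with its higher CLDN11 value. DMRT1, which is Z-linked, was at 13.70 to 13.91 in testes and 13.33 to 13.55 in ovaries and was not called by its main probe set (adjusted p = 0.0883), while its second probe set was called higher in testes (1.41, adjusted p = 0.00613). The part of Sertoli cell number in the CLDN11 difference was not tested.

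CLDN5 was also higher in testes, by its main probe set only. This probe set was at 8.04, 8.78, 8.74 and 8.70 in testes, against 7.56, 7.80 and 7.17 in ovaries. The groups did not overlap, and the testis of embryo 9 lay nearest to the ovaries. The difference was 1.05 (SE 0.24, adjusted p = 0.00247), or 2.08-fold. The second probe set gave 7.33, 7.58, 7.62 and 7.42 in testes and 7.39, 7.27 and 6.99 in ovaries, and its groups overlapped with a difference of 0.27 (SE 0.18, adjusted p = 0.271). The call for CLDN5 therefore rests on 1 of its 2 probe sets.

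Endothelial cells are the best known site of CLDN5, so their markers were set beside it. Of 8 endothelial markers whose main probe set has values in gonads none was called higher in testes and 3 were called lower, and their mean level was 8.24 to 8.42 in testes and 8.76 to 8.98 in ovaries. Over all probe sets 12.8% were called higher and 13.8% lower in testes. CDH5, the cadherin of endothelial junctions, differed by -0.73 (adjusted p = 0.00406), the endothelial secreted factor EGFL7 by -1.35 (adjusted p = 1.91e-05) and the clotting factor carrier VWF by -1.07 (adjusted p = 0.00104). PECAM1 differed by 0.03 and the angiopoietin receptor TEK by 0.29, neither of them called. KDR, a receptor of vascular growth factor whose main probe set is blank in gonads, was called lower in testes by its other 3 probe sets with values. By 1 of them it was at 4.82 in testes and 7.22 in ovaries. Another, whose name differs from that one only in its suffix, gave 4.98 and 7.45. The remaining probe set averaged 2.84 in testes, under 4.000, the lowest higher sex mean deposited, so it could only be lower in testes. The part of endothelial cells in the CLDN5 values was not tested.

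CLDN1 and TJP1 were not called between testes and ovaries. CLDN1 was at 8.17, 8.75, 8.84 and 9.42 in testes and at 8.47, 7.65 and 9.53 in ovaries, so the ovaries spanned the whole range of the testes. Its difference was 0.24 (SE 0.38, adjusted p = 0.674). TJP1 was at 9.49, 9.30, 9.15 and 9.28 in testes and at 8.94, 9.07 and 9.08 in ovaries by its main probe set, groups that lay close together without overlapping, with a difference of 0.28 (SE 0.16, adjusted p = 0.206). The second TJP1 probe set gave a difference of 0.59 (SE 0.29, adjusted p = 0.142).

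In all, 2 of the 4 genes were called higher and 0 lower in testes, where 12.8% of all probe sets were called higher and 13.8% lower. The arrays of the sexes did not overlap for 3 of the 4 genes in gonads, against 39.9% of all probe sets.

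**Figure D2:**
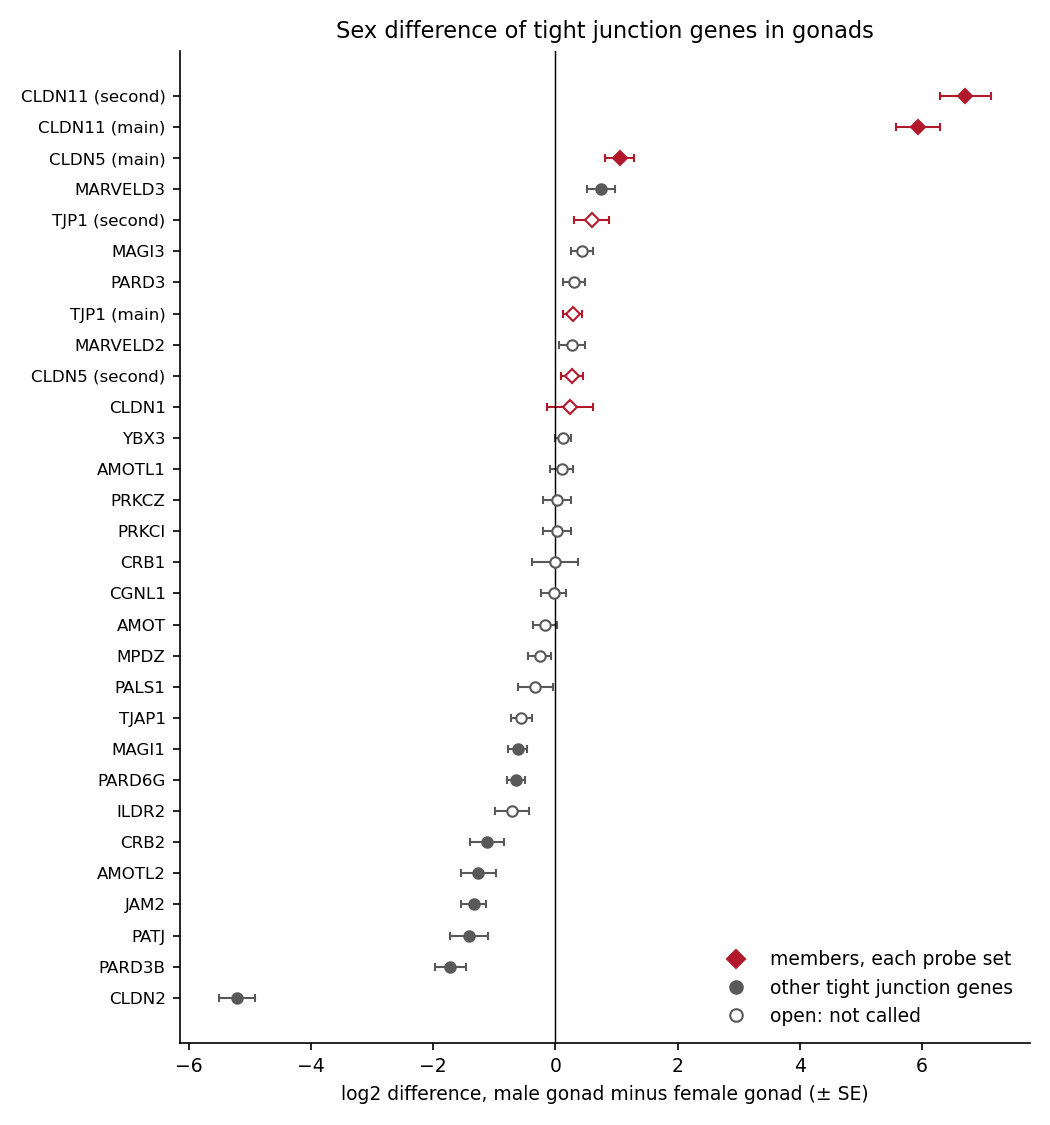
Difference between male and female gonads on the log2 scale, with its SE, for the 7 probe sets of the 4 genes (diamonds) and for 23 other tight junction genes (circles). Filled symbols were called. CLDN11 stands at the male end (5.93 and 6.71) and CLDN2 at the female end (-5.21).

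A list of 55 other tight junction genes was read in the same way. Of these, 25 had a probe set annotated to them in the table and 23 had values in gonads for their main probe set. Of these 23, 1 was called higher and 8 lower in testes, and the median difference was -0.26, against 0.02 over all probe sets tested, of which 12.8% were called higher and 13.8% lower. Among the 8, CLDN2 and CRB2 averaged 3.57 and 3.51 in testes, under 4.000, the lowest higher sex mean deposited. They have gonad values only through the ovaries, so they could only be lower in testes. The arrays of the sexes did not overlap for 10 of the 23, a share near the 39.9% of all probe sets. The calls numbered 8 without the ovary of embryo 2 or 20 and 10 without that of embryo 12, in place of 9.

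Markers of other cell types also differed between the gonads and varied among the ovaries. Over all probe sets 12.8% were called higher and 13.8% lower in testes. Of 3 adrenal gland markers 2 were called lower in testes, and their mean level was 2.76 to 3.19 in testes, against 3.45 to 8.62 in ovaries. TH and DBH, which both enter this mean level, averaged 2.22 and 2.38 in testes, under 4.000, the lowest higher sex mean deposited. They have gonad values only through the ovaries, so they could only be lower in testes. Tyrosine hydroxylase (TH), the enzyme that opens catecholamine synthesis, was at 1.99 to 2.41 in testes, against 6.09 in the ovary of embryo 2, 8.76 in that of embryo 12 and 2.40 in that of embryo 20. Of 4 neuron markers 3 were called lower in testes, with a mean level of 5.07 to 5.69 in testes and 5.57 to 8.26 in ovaries. STMN2 and SYT1, which both enter this mean level, averaged 2.83 and 3.92 in testes, under 4.000. Like TH and DBH, STMN2 and SYT1 could only be lower in testes. NEFL averaged higher in testes without a call (6.79, against 6.18 in ovaries). STMN2, a microtubule regulator of neurons, was at 2.57 to 3.07 in testes and at 10.28, 8.70 and 3.02 in the same ovaries, so that in both genes the ovary of embryo 20 lay at the level of the testes. The red blood cell marker with values was at 12.12 to 13.35 in testes and 13.52 to 14.57 in ovaries and was called lower in testes. Of 4 Leydig and interstitial cell markers 3 were called higher in testes (mean level 11.38 to 11.66 in testes and 9.93 to 10.36 in ovaries). CYP17A1, the highest of them, averaged lower in testes without a call (14.48, against 14.87 in ovaries). The part of these cells in the differences of tight junction genes was not tested.

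CLDN2, a claudin that forms cation-selective pores in leaky epithelia such as the kidney tubule, went the other way from CLDN11. It was at 3.54, 4.23, 2.87 and 3.67 in testes and at 8.72, 8.65 and 8.98 in ovaries. The testis mean of 3.57 lay under 4.000, the lowest higher sex mean deposited for any probe set, and against this level CLDN2 was at least 27.5-fold lower in testes (-5.21, SE 0.30, adjusted p = 7.29e-06). Markers of kidney tubules, which lie next to the gonads in the embryo, were set beside CLDN2. Of 3 with values, UMOD was at 2.33 to 2.97 in testes and 7.37 to 7.54 in ovaries and was called lower in testes. CUBN was called lower by 1.26 on the log2 scale with overlapping arrays. Like CLDN2, UMOD and CUBN averaged under 4.000 in testes (2.58 and 3.53), so these genes have gonad values only through the ovaries. They could only be lower in testes, and their shared direction is no result. LRP2 lay above this level in both sexes (5.26 in testes and 5.67 in ovaries) and was not called (-0.41). The part of kidney tubules in the CLDN2 difference was not tested.

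Among membrane proteins of the junction, JAM2, an adhesion molecule, was 1.34 lower in testes on the log2 scale (adjusted p = 8.45e-05), and its other 2 probe sets were called in the same direction. MARVELD3, a relative of occludin, was the gene called higher in testes, with a difference of 0.75 (adjusted p = 0.0166). Among scaffold and polarity proteins, PARD3B differed by -1.72 (adjusted p = 4.9e-05), PATJ by -1.42 (adjusted p = 0.00162) and AMOTL2 by -1.26 (adjusted p = 0.00249), all lower in testes. CRB2, whose testis mean of 3.51 lay under the level of 4.000, was at least 1.54-fold lower in testes (adjusted p = 0.0194). PARD6G (-0.65) and MAGI1 (-0.62) passed the fold threshold more narrowly. Probe sets of the same gene did not always share the call. The second probe set of PARD6G differed by -0.17 (adjusted p = 0.716) and that of PARD3B by -1.02 (adjusted p = 0.0798), whereas 1 of the other probe sets of PARD3 was called higher in testes (0.81, adjusted p = 0.00482) and its main probe set was not (0.30).

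**Figure D3:**
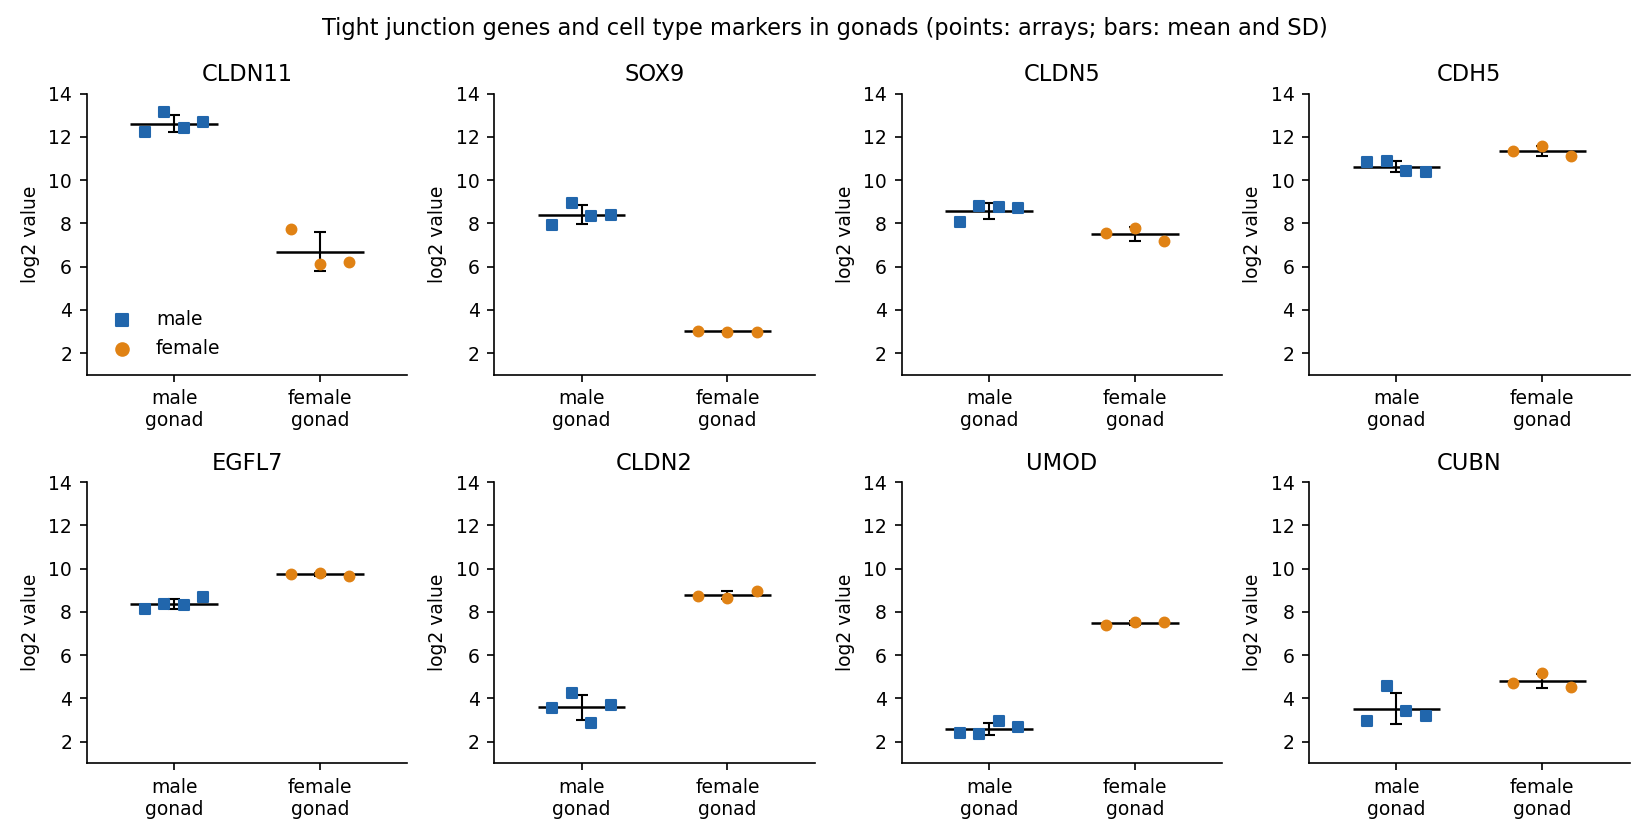
Log2 values of CLDN11, CLDN5 and CLDN2 in male and female gonads beside markers of Sertoli cells (SOX9), endothelial cells (CDH5, EGFL7) and kidney tubules (UMOD, CUBN), with 1 point per array and a bar for the mean and SD. SOX9 is higher in testes like CLDN11, CDH5 and EGFL7 are lower in testes where CLDN5 is higher, and UMOD is lower in testes like CLDN2. The directions of SOX9, CLDN2, UMOD and CUBN were fixed, since each averaged under 4.000 in 1 sex and has gonad values only through the other. Other markers of these lists, which are not drawn, went otherwise: the Sertoli cell marker FSHR was lower in testes (7.82 against 9.62 in ovaries), and the endothelial markers TEK (0.29) and PECAM1 (0.03) were not called. The Sertoli cell marker PTGDS averaged lower in testes without a call (5.61 against 6.83 in ovaries), and the kidney tubule marker LRP2 was not called.

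In brain and heart no member was called between the sexes. In brain 0 of 4 genes were called by limma, 0 of them had an unadjusted p under 0.05, and the arrays of the sexes overlapped for each of them. Over all probe sets 1.27% were called higher and 0.31% lower in male brains, and 8.73% did not overlap. In heart 0 of 3 genes were called, 0 had an unadjusted p under 0.05 and none was without overlap, where over all probe sets 1.34% were called higher and 0.393% lower in males and 9.61% did not overlap. The other tight junction genes were not called either, 0 of 19 in brain and 0 of 21 in heart, with an unadjusted p under 0.05 for 2 and 1 of them. The Z-linked scaffold gene MPDZ was one of these in brain, at 8.34 in male and 7.73 in female brains on average, a difference of 0.61 (SE 0.19, adjusted p = 0.175).

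CLDN11 in brain was at 11.90, 11.30 and 11.38 in males and at 11.01, 11.29, 11.52 and 10.85 in females by its main probe set, a difference of 0.36 (SE 0.36, adjusted p = 0.815). The second probe set was at 11.92, 11.69 and 11.32 in males and at 9.74, 11.14, 10.45 and 11.99 in females, a difference of 0.81 (SE 0.42, adjusted p = 0.561). Within brain the 2 probe sets did not follow each other. The female of embryo 20 was the lowest array by the main probe set and the highest by the second, and the correlation was 0.21 over the 7 brain arrays, against 0.99 over the 7 gonad arrays.

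Myelin markers varied among the same brains. Over 6 such markers the mean was 8.85 to 9.25 in male brains and 8.23 to 9.14 in female brains, and MOBP, a protein of compact myelin, was called higher in males (1.19, adjusted p = 0.0362, at least 2.18-fold against the level of 4.000). The female mean of MOBP, 3.94, lay under this level, so it has brain values only through the males and could only be higher in them. CNP, an enzyme of myelin-forming cells, was lowest at 11.16 in the female brain of embryo 2 and highest at 13.20 in that of embryo 20. SOX10, a transcription factor of the same cells, was at 5.94, 7.52, 7.41 and 8.36 in the female brains of embryos 2, 10, 12 and 20. The second CLDN11 probe set placed these 4 brains in the same order as CNP and SOX10, and the main probe set did not. This match is of 4 arrays and 2 of the 6 markers, and the order of the other markers and of the male brains is not given here. MOG averaged 5.98 in male and 6.24 in female brains, while the other markers averaged higher in males by their main probe sets. The MOG probe set was higher in male heart (10.28), female heart (10.17) and ovaries (7.52) than in brain. It therefore did not behave as a marker of myelin alone in these samples, although it is part of the mean above. The part of myelin content in these values was not tested.

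CLDN5 in brain was at 9.66, 9.41 and 9.24 in males and at 9.0, 9.60, 9.35 and 9.11 in females, and in heart at 8.82, 8.74 and 8.36 in males and at 8.84, 8.17, 9.08 and 8.26 in females. The sexes overlapped in both tissues, with differences of 0.17 (SE 0.24) and 0.06 (SE 0.24). CLDN1 differed by 0.06 (SE 0.38) in brain and -0.21 (SE 0.38) in heart, and TJP1 by 0.13 and 0.07 (SE 0.16 each). The second probe sets of CLDN5 and TJP1 differed by -0.49 to 0.29 in these tissues and were not called.

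Whether the sex difference itself differed between tissues was tested as an interaction, called at an adjusted p under 0.05. For CLDN11 the sex difference was 5.57 larger in gonads than in brain by the main probe set (SE 0.51, adjusted p = 1.32e-05) and 5.90 larger by the second (SE 0.60, adjusted p = 2.82e-05). For CLDN5 the main probe set gave 0.88 against brain (adjusted p = 0.0946) and 1.0 against heart (adjusted p = 0.0556), neither past the threshold. The second CLDN5 probe set gave 0.24 against brain (adjusted p = 0.613) and 0.32 against heart (adjusted p = 0.43). It was called in none of the 18 alternatives of either comparison, and the CLDN5 calls given below are of the main probe set. So 1 of 4 genes was called with a larger male excess in gonads than in brain and 0 with a smaller one, where 6.96% and 7.67% of all probe sets were. Against heart 0 of 3 were called in either direction by limma, with an unadjusted p under 0.05 for 1, where 6.57% of all probe sets were called higher and 8.78% lower. With the embryo as a replicate block CLDN5 was called against heart (1.02, adjusted p = 0.0321). CLDN5 was also called without the testis of embryo 9, against brain (1.05, adjusted p = 0.0392) and against heart (1.17, adjusted p = 0.0226), and against heart without the ovary of embryo 12 (1.14) or the female heart of embryo 10 (1.14) or 20 (1.11). Between heart and brain 0 of 3 were called and 0 had an unadjusted p under 0.05, where 0.0385% and 0.0154% of all probe sets were called.

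Of the other tight junction genes 5 of 18 had a lower male level relative to female in gonads than in brain, and 0 a higher one. These were PARD3B (-2.16, adjusted p = 0.000453), PATJ (-1.52), JAM2 (-1.45), MPDZ (-0.87) and PARD6G (-0.77). Against heart 4 of 19 did, namely AMOTL2 (-1.72), JAM2 (-1.70), PARD3B (-1.64) and MAGI1 (-0.82), and 0 in the other direction. Over all probe sets 7.67% were called lower and 6.96% higher against brain, and 8.78% and 6.57% against heart. The counts against brain and against heart share the gonad arrays. Without the male brain of embryo 19 the count against brain was 2, and without the ovary of embryo 2 it was 3.

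Across tissues, CLDN11 in testes was near or above its level in brain, while ovaries were far below brain. Ovaries were 4.49 lower than female brains on the log2 scale (SE 0.36, adjusted p = 1.54e-07), or 22.4-fold, by the main probe set and 5.80 lower, or 55.8-fold, by the second (adjusted p = 5.48e-08). Testes were 1.08 above male brains by the main probe set (SE 0.36, adjusted p = 0.0175), and within embryos 16, 19 and 21 the excess was 1.25, 1.12 and 1.29. The second probe set gave 0.09 (SE 0.42, adjusted p = 0.858), with 0.04, 0.10 and 0.71 in the same embryos. The call of the main probe set was lost when arrays were centred (0.87, adjusted p = 0.0501) and without the testis of embryo 16 (0.90, adjusted p = 0.0506) or the brain of embryo 19 (0.97, adjusted p = 0.0615) or 21 (1.01, adjusted p = 0.0561). Ordered by its main probe set, CLDN11 was highest in testes (12.61 ± 0.41, SD, n = 4), then male brain (11.53 ± 0.33, n = 3), female brain (11.17 ± 0.30, n = 4) and ovaries (6.68 ± 0.91, n = 3). Male and female brain overlapped and were not called different.

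**Figure D4:**
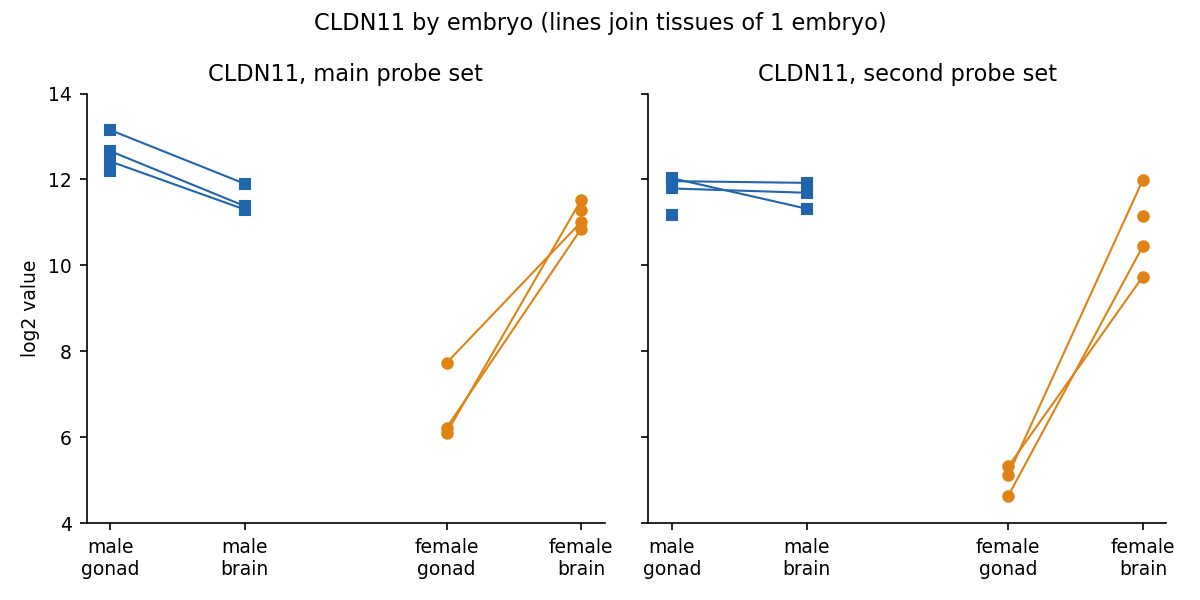
CLDN11 in gonad and brain on the log2 scale, by main and second probe set, with a line joining the 2 tissues of each embryo and unjoined points where an embryo has only 1. Lines of the 3 males run down to brain by 1.12 to 1.29 for the main and by 0.04 to 0.71 for the second probe set. Lines of the 3 females run steeply up by 3.27 to 6.86.

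CLDN1 was higher in gonads of both sexes than in brain and heart. It was at 7.65 to 9.53 in the 7 gonads, at 5.63, 5.57 and 5.20 in male brains, at 5.79, 5.06, 5.40 and 5.39 in female brains, at 5.35, 4.10 and 5.27 in male hearts and at 5.35, 5.30, 5.07 and 4.76 in female hearts. No gonad overlapped any brain or heart. Testes were 3.33 above male brains (SE 0.38, adjusted p = 4.21e-07) and 3.89 above male hearts (adjusted p = 8.5e-08, 14.8-fold). Ovaries were 3.14 above female brains (adjusted p = 9.43e-07, 8.82-fold) and 3.43 above female hearts (adjusted p = 4.01e-07, 10.8-fold). Within embryos the excess over brain was 3.12, 3.28 and 4.22 in males and 2.67, 2.25 and 4.15 in females. Brain and heart overlapped and were not called different (0.42, SE 0.27, adjusted p = 0.155). Of 9 epithelial markers 2 had values in each tissue, and EPCAM was the one with values in all of them. EPCAM, an epithelial adhesion protein, was at 7.13 to 9.04 in gonads, 8.06 to 9.32 in brains and 3.23 to 5.32 in hearts, so it separated gonads from heart and not from brain.

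CLDN5 was highest in brain. By its main probe set the order was male brain (9.44 ± 0.21, SD), female brain (9.27 ± 0.27), male heart (8.64 ± 0.25), female heart (8.58 ± 0.44), testes (8.56 ± 0.35) and ovaries (7.51 ± 0.32). The sexes in brain, the sexes in heart, and testes and male heart overlapped and were not called different by this probe set. Brain was 0.74 above heart (SE 0.17, adjusted p = 0.000697, 1.67-fold) with overlapping arrays, and by the second probe set 0.36 above it (adjusted p = 0.0137, 1.29-fold), which did not pass the fold threshold. Testes were 0.88 below male brains by the main and 1.51 below by the second probe set (adjusted p = 0.00366 and 5.76e-07), and ovaries 1.76 and 1.75 below female brains (adjusted p = 4.38e-06 and 9.72e-08). Against heart the probe sets disagreed in males, where testes differed by -0.08 (adjusted p = 0.802) by the main and by -1.11 (adjusted p = 3.03e-05) by the second. Both placed ovaries below female hearts, with differences of -1.07 (adjusted p = 0.000838) and -1.43 (adjusted p = 1.54e-06).

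Endothelial markers were set beside CLDN5 in brain and heart as well. All 8 endothelial markers tested were called lower in brain than in heart, where 33.0% of all probe sets were. Among them were CDH5 (-2.21), PECAM1 (-2.94) and EGFL7 (-3.09). Of 4 blood-brain barrier markers tested between these tissues 2 were called higher in brain and 1 lower, where 25.5% and 33.0% of all probe sets were. MFSD2A, a lipid transporter of brain endothelium, was 2.87 higher in brain (adjusted p = 9.26e-09) and the amino acid transporter SLC7A5 was 0.86 higher. The drug efflux pump ABCB1 was 1.67 lower on the log2 scale. SLC2A1 was not called, at 11.55 in male and 11.26 in female brains and at 11.55 in male and 11.51 in female hearts on average. The part of endothelial or barrier cells in the CLDN5 difference was not tested.

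Of the 4 main probe sets that of TJP1 varied least. It ranged from 8.44 to 9.77 over all 21 arrays, with means of 9.52 ± 0.23 in male heart, 9.44 ± 0.19 in female heart, 9.31 ± 0.14 in testes, 9.03 ± 0.08 in ovaries, 8.83 ± 0.27 in male brain and 8.70 ± 0.26 in female brain (SD). Brain was 0.71 below heart (SE 0.11, adjusted p = 1.78e-05, 1.64-fold), and no brain array reached the lowest heart array. The second probe set gave -0.59 (SE 0.21, adjusted p = 0.015, 1.51-fold) with overlapping arrays. Its call was lost in 8 of 19 alternatives, namely array weights (-0.56), centring (-0.52) and leaving out the male brain of embryo 19 (-0.48), the female brain of embryo 10 (-0.58) or 20 (-0.57), the male heart of embryo 16 (-0.56) or 21 (-0.50) or the female heart of embryo 12 (-0.45). In gonads the 2 probe sets differed. By the main probe set testes differed from male brain by 0.48 (adjusted p = 0.0143, 1.39-fold) and from male heart by -0.21, and ovaries from female brain by 0.32 and from female heart by -0.41 (adjusted p = 0.033, 1.33-fold), none called, although the difference between testes and male brain was called without the male brain of embryo 16 (0.63) and with the mean of both probe sets (0.78, adjusted p = 0.000614). By the second probe set testes were called higher than male brain (1.08, adjusted p = 0.00344) and male heart (0.87, adjusted p = 0.0162), and ovaries higher than female brain (0.78, adjusted p = 0.0266). The call against male heart was lost without the testis of embryo 16 (0.71) or the male heart of embryo 19 (0.61). The call against female brain was lost with centring (0.58) and without the ovary of embryo 12 (0.65) or the female brain of embryo 10 (0.76) or 20 (0.72). The correlation of the 2 probe sets was 0.49 over 21 arrays and -0.23 over the 7 heart arrays.

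Counted by main probe sets, the 4 genes gave 2 higher and 1 lower in testes than in male brain, where 34.5% and 23.6% of all probe sets were called, and their arrays did not overlap for 4 of 4, against 66.6%. In ovaries against female brain 1 was higher and 2 were lower of 4, against 33.4% and 23.1%, and 3 of 4 did not overlap, against 67.5%. In testes against male heart 1 was higher and 0 lower of 3, against 29.3% and 21%, and 1 of 3 did not overlap, against 61.9%. In ovaries against female heart 1 was higher and 1 lower of 3, against 30.5% and 21.5%, and 3 of 3 did not overlap, against 63.6%. In brain against heart 1 was higher and 1 lower of 3, against 25.5% and 33.0%, and 1 of 3 did not overlap, against 52.2%. With 3 or 4 genes in each count, these shares cannot be set apart from those of all probe sets.

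The other tight junction genes had calls in both directions between tissues. In testes against male brain 8 were higher and 7 lower of 18 (median 0.37, against 0.21 over all probe sets), where 34.5% and 23.6% of all probe sets were called. In ovaries against female brain 10 were higher and 3 lower of 18 (median 0.73, against 0.20), where 33.4% and 23.1% of all probe sets were. YBX3, a transcription factor that binds ZO-1, was 2.28 higher in testes (SE 0.13, adjusted p = 5.9e-11) and 2.08 higher in ovaries than in brain. PALS1, a scaffold of the apical Crumbs complex, was 2.16 and 2.59 higher, and PARD6G, a polarity adaptor, 1.35 and 2.12 higher. PRKCZ, the kinase of the PAR complex, was 2.66 lower in testes and 2.87 lower in ovaries than in brain on the log2 scale, PATJ was 2.53 and 1.0 lower, and JAM2 was 2.12 and 0.68 lower. PARD3B was called in males only, with a difference of -1.78 from male brain, and the interaction above gives the test of that difference between the sexes.

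**Figure D5:**
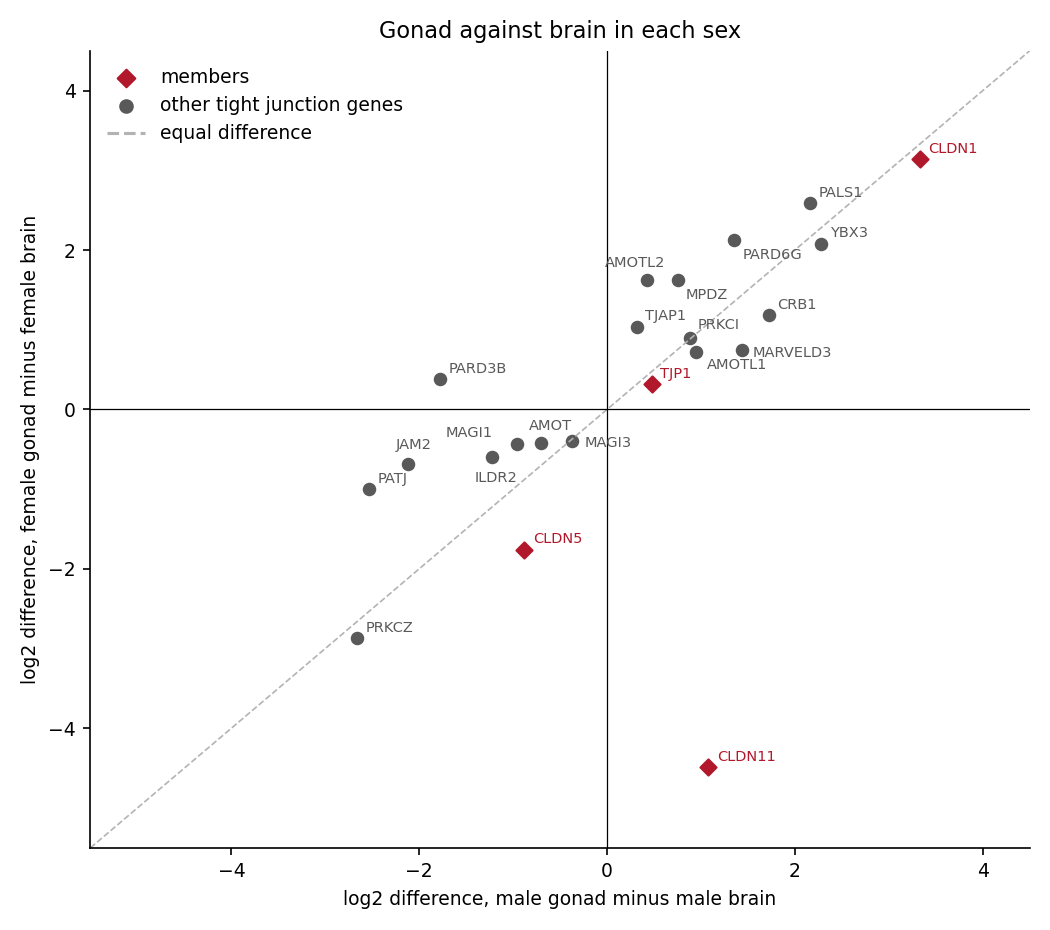
Difference between gonad and brain on the log2 scale in males (horizontal axis) and in females (vertical axis) for the main probe sets of 4 members (diamonds) and 18 other tight junction genes (circles), with a dashed line where both are equal. CLDN1 lies high in both (3.33 and 3.14), CLDN11 lies at 1.08 in males and -4.49 in females, and PARD3B at -1.78 in males is the lowest of those that are above 0 in females.

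Against heart, 6 other tight junction genes were higher and 6 lower of 19 in testes (median 0.35, against 0.16 over all probe sets), where 29.3% and 21% of all probe sets were called. In ovaries 9 were higher and 3 lower of 19 (median 0.61, against 0.16), where 30.5% and 21.5% of all probe sets were. PARD6G was 3.28 higher in testes and 3.91 higher in ovaries, and PALS1 2.69 and 2.97 higher. The atypical protein kinase PRKCI was called higher in both, by 1.85 in ovaries. AMOTL1, an angiomotin that binds actin and junction scaffolds, was 2.04 and 1.82 lower, and MAGI1 was 2.24 and 1.42 lower. In brain against heart 9 were higher and 4 lower of 17 (median 0.83, against -0.17), where 25.5% and 33.0% of all probe sets were called. PATJ (3.53, adjusted p = 5.01e-11), PRKCZ (3.27), the neuronal scaffold MAGI2 (2.48) and PARD6G (1.86) were higher in brain, and YBX3 (-2.87, adjusted p = 6.86e-15), AMOTL1 (-2.77), AMOTL2 (-2.18) and MAGI1 (-1.14) were lower.

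Genes whose pattern was most like each member were ranked by Pearson correlation over arrays, 1 main probe set per gene, as a description. The arrays share tissue and sex, so that a high value mainly follows the group means. For CLDN11, over 14 gonad and brain arrays and 717 genes with the same blanks, the 3 highest were SOX9 (0.9742), the secreted Wnt inhibitor WIF1 (0.9592) and LRRN3 (0.9402). Each of the 3 was lowest in ovaries, where SOX9 averaged 3.00, WIF1 5.06 and LRRN3 3.18. SOX9 and LRRN3 lay under 4.000 there and have gonad values only through the testes. They could only be lower in ovaries than in testes. Over the 7 gonad arrays and 2213 called genes the highest were TRAPPC13 (0.9975), MEGF10 (0.9970) and DCAF6 (0.9962). For CLDN1, over 21 arrays and 6238 genes, they were the septin SEPTIN2 (0.9650), the DNA repair enzyme TDP1 (0.9638) and the phosphatase SYNJ2 (0.9484). For CLDN5 they were ARHGDIA (0.9156), ZFYVE19 (0.8881) and the receptor KIT (0.8856), and for TJP1 the small heat shock protein HSPB8 (0.9053), the integrin-linked kinase ILK (0.8912) and the RNA-binding protein QKI (0.8831). KIT, like CLDN5, was higher in testes (8.62) than in ovaries (6.55) and highest in male and female brain (10.24 and 10.10).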

How the data were processed

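Affymetrix Chicken Genome arrays were hybridized with RNA of left gonad, brain and heart from 8 embryos, and 21 arrays are held, since 3 had failed quality control. For heart and gonad samples the labels mention a human array, although every probe set name is of the chicken design. The deposited values are log2 intensities, which the authors made with GCRMA (background correction), then quantile normalization, then median polish. R 2.4.1 and MAS5 appear in the submitters' processing notes. In each tissue a probe set is blank on all arrays or on none (16113 with values in brain, 16499 in gonads, 15282 in heart), and the higher sex mean was at least 4.000 wherever values are given. Arrays of 1 tissue, both sexes together, correlated at 0.878 to 0.981. The number of arrays limits the precision, and no depth applies.

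Probe sets were named through the gene number in the platform's gene table (16063 probe sets) or the symbol (132), using GRCg7b symbols. No sequence tables came with the reference, so no sequences are printed. The values were used without change. Limma 3.58.1 in R 4.3.3 was fitted with groups of sex and tissue combined and no block, as in the study. Each probe set was fitted on the arrays of the tissues where it has values. Those with values in all tissues used 21 arrays in 6 groups. CLDN11 used the 14 gonad and brain arrays, and CLDN2 and CRB2 the 7 gonad arrays. The paper fitted its model before the filter. For a gene with several probe sets, that with the highest mean over its arrays was taken, in lists and marker counts too. The text names all members, up to 6 called genes in each direction from the list of other tight junction genes by size of the difference, and the markers that bear on a result. PARD6G and MAGI1 between the gonads, MPDZ in brain and PARD3 were named outside this rule after their values were seen. Members and lists were chosen with earlier results of these data known.

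Alternatives were the embryo as a replicate block, array quality weights, centred arrays, a stricter filter on low values (a higher group mean of at least 6), a fit of the compared groups alone, leaving out each array, and the mean over the probe sets of a gene. The pairing comes from the embryo numbers in the labels, since tissues with the same number and sex are of the same animal. Deviations from the group means correlated at 0.164 to 0.455 (median 0.276) in 19 pairs of arrays of 1 embryo and at -0.433 to 0.199 (median -0.105) in 54 other pairs of the same sex. The consensus correlation of the block was 0.121. The method was run on simulated data with independent noise for each array, so without pairing of embryos. The outcome of that run is not given here. Other computations used Python 3.11.15 with numpy 2.4.6, pandas 2.3.3 and matplotlib 3.10.9.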

Additional observations from a re-analysis of the deposited data

Results flagged for a closer look

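CLDN5 (main probe set) in the testis of embryo 9 was at 8.04, while the other 3 testes lay at 8.70 to 8.78, and this gap made up 0.889 of the range of the group. Groups of 4 arrays were looked at for such a gap in 19 cases, and chance flags about 1 group in 20. Without this testis the CLDN5 difference between testes and ovaries stayed called.

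The sex difference of CLDN11 was larger in gonads than in brain, by 5.57 on the log2 scale for the main probe set (adjusted p = 1.32e-05) and by 5.90 for the second (adjusted p = 2.82e-05). All 4 testes were above all 3 ovaries by both probe sets, and male and female brains overlapped.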

How the results depend on the processing

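Of 949 recomputed values over 65 results for single probe sets, 883 kept direction and call, 20 lost the call, 10 gained it and 36 changed sign, all without a call in either setting, and 39 results changed in none. The CLDN11 difference between testes and ovaries (both probe sets) and the CLDN5 difference (main probe set) kept their calls in all alternatives, CLDN5 with an adjusted p of 0.000839 to 0.0203. For CLDN11 in testes against male brain the adjusted p ranged from 0.00595 to 0.108, the highest with the mean of both probe sets (0.59).

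With the mean of probe sets, 1 member was called between brain and heart in place of 2, since CLDN5 came to 0.55, and 2 members between testes and male heart in place of 1, since CLDN5 came to -0.59 (adjusted p = 0.00942). TJP1 was also called then between testes and male brain (0.78). With the replicate block, which pairs tissues of an embryo, the members whose sex difference differed between gonads and heart numbered 1 in place of 0, and the second TJP1 probe set was called there too (1.09, adjusted p = 0.0469). The block changed no other call of a member. Leaving out 1 array gave 0 to 1 members for this comparison and 1 to 2 for gonads against brain. Among other tight junction genes the count against heart was 7 with the replicate block and 7 with array weights in place of 4, and against brain it was 2 to 7 in place of 5 when 1 array was left out.

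Signs changed with array weights for CLDN1 (-0.02) and the second CLDN5 probe set (-0.04) between sexes in brain and for CLDN5 (-0.01) in heart, with the mean of probe sets for TJP1 between sexes in heart (-0.21) and in testes against male heart (0.33), and with centred arrays for the second CLDN11 probe set in testes against male brain (-0.12). Leaving out 1 array also gave both signs. Between sexes the ranges were -0.06 to 0.19 for CLDN1, -0.08 to 0.21 for the second CLDN5 probe set and -0.03 to 0.23 for TJP1 in brain, -0.20 to 0.73 for CLDN1 in gonads, and -0.43 to 0.19 for CLDN1, -0.08 to 0.22 and -0.19 to 0.06 for CLDN5 and -0.05 to 0.17 for TJP1 in heart. In testes against brain the second CLDN11 probe set gave -0.07 to 0.28, in testes against heart CLDN5 gave -0.22 to 0.10, and in ovaries against heart the second TJP1 probe set gave -0.33 to 0.09. The difference between sex effects gave -0.26 to 0.68 for CLDN1 in gonads against brain, and in heart against brain -0.49 to 0.13 for CLDN1, -0.26 to 0.05 and -0.26 to 0.03 for CLDN5 and -0.18 to 0.10 for TJP1. The cause was not tested.

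Over all probe sets, 255 were called between the sexes in brain, but 163 with these groups fitted alone and 406 without the male brain of embryo 19. In heart 265 were called, but 130 with the groups alone and 171 without the male heart of embryo 19. For the sex difference in heart against brain 7 were called, but 21 without the male brain of embryo 19 and 11 with the mean of probe sets. Values near the level of 4.000 limit the fold-changes of CLDN2, CRB2 and the low markers.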
